A study of Arabidopsis thaliana with 13 samples.

Results

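The earliest time point of the series compared rRBr with Col-0 root tips at 4 das, on 4 of the 13 Affymetrix ATH1 arrays, chosen by the genotype and stage in the sample labels. The 2 arrays of rRBr came from a Col-0 line in which RNA interference against RBR is driven by the RCH1 promoter, so that silencing is confined by design to the domain of that promoter in the root meristem. The 2 arrays of Col-0 came from wild-type seedlings of the same age, grown on the same medium in long days, and neither group received a treatment. The labels give the age as days after stratification and the paper as days after sowing. The other 9 arrays, with 2 of rRBr and 1 of Col-0 at 6 das and 3 of each line at 10 das, served to estimate the spread and to follow the 4 das differences on later days. Each array held the RNA of 20 to 40 mg of tips cut under a microscope, so that a transcript lost with a cell type and one lowered within each cell cannot be told apart.

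RBR is the only retinoblastoma protein of Arabidopsis. It binds E2F transcription factors at the promoters of genes needed for S phase, such as those of histones and of the replication machinery, and holds them back until cyclin-dependent kinases phosphorylate it. In the root tip RBR also restrains division in the stem cell niche, and it takes part in the response to DNA damage. No probe set is assigned to RBR alone in the annotation used here, so that RBR itself was not analysed.

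Markers of the labelled tissue were uneven in signal. RCH1 (At5g48940), the receptor kinase gene whose promoter drives the silencing, read 9.21 and 9.24 in rRBr and 9.10 and 9.24 in Col-0 on the log2 scale of the deposited values. The root cap gene RCPG (At1g65570) read 9.64 and 9.86 in rRBr and 9.83 and 9.87 in Col-0. LHCB4.1, LHCB4.2 and LHCB4.3, chlorophyll-binding proteins of leaves, lay between 4.55 and 5.94 in rRBr and between 4.45 and 5.58 in Col-0. AGL42, a gene of the quiescent centre, lay below these leaf genes on every array of 4 das. The meristem gene BBM lay near or above the highest of them, with the values of both given further on. The root hair genes EXPA7 and EXPA18, expansins of elongating hairs, averaged 6.27 and 5.90 in rRBr and 7.41 and 6.18 in Col-0, so that Col-0 replicate 1 held the most root hair transcript and rRBr replicate 2 the least. The replicates of rRBr differed by 2-fold or more at 73 probe sets and those of Col-0 at 186, or 0.321% and 0.818% of 22746.

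Few single transcripts passed the test at this age. In a limma fit of all 13 arrays as 6 groups that share 1 spread, 5 probe sets reached an adjusted p under 0.05, which is 0.022% of those tested, and 4 of the 5 were lower in rRBr. With the limits of the study's methods, which add a 1.4-fold minimum to an adjusted p below 0.01, 1 probe set was called (0.0044%). The study applied these limits to another contrast, with the arrays of each line grouped over all days. At an unadjusted p under 0.05, 449 probe sets were higher and 257 lower in rRBr. This balance turned without Col-0 replicate 1 (301 higher and 369 lower) and with the replicate number as a block within each day (848 and 947), and without rRBr replicate 2 it was 301 and 147. The median difference over all probe sets was 0.015, and 1% of them lay below −0.65 and 1% above 0.47. Without the 3 later arrays that stood apart by their root hair transcripts, described further on, 17 probe sets reached an adjusted p under 0.05, 8 higher and 9 lower in rRBr. With weights that limma estimates for each array, 25 did, 18 higher and 7 lower. No probe set passed without Col-0 replicate 2 or without rRBr replicate 2, where 585 and 448 had an unadjusted p under 0.05 in limma. The plot of level against difference shows the called probe sets among all others.

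**Figure D1:**
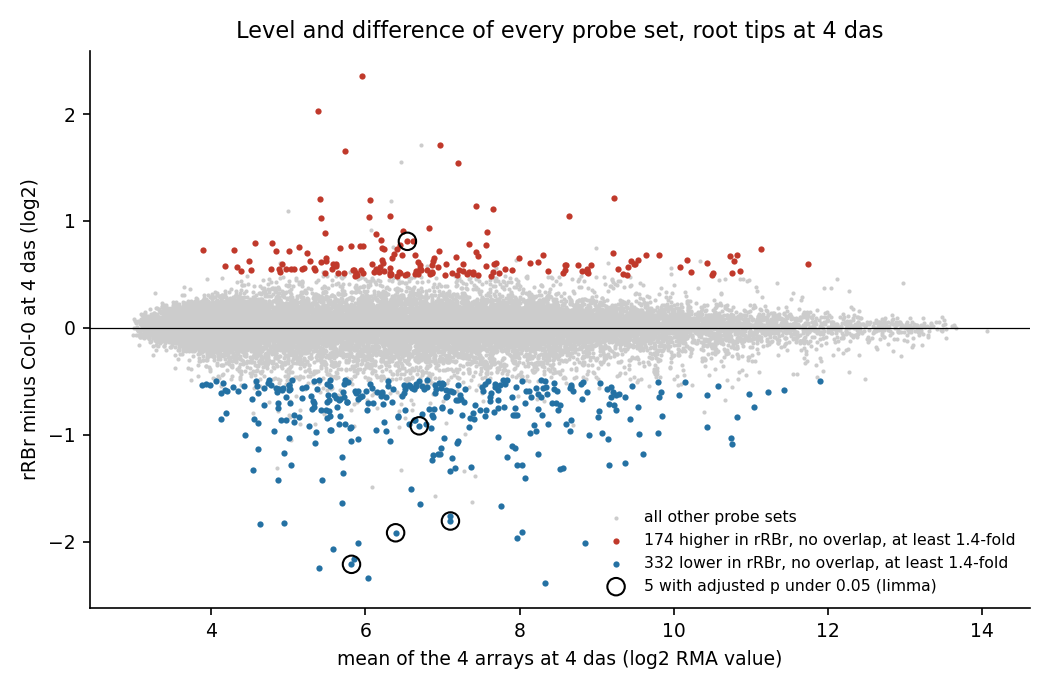
Difference between rRBr and Col-0 at 4 das (log2, y axis) against the mean log2 RMA value of the 4 arrays (x axis) for 22746 probe sets. The 5 circled probe sets passed an adjusted p under 0.05, 4 of them below 0, and the coloured points are the 174 and 332 probe sets whose arrays did not overlap and whose means lay at least 1.4-fold apart.

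The larger fall of a named gene was that of At5g24240, which encodes a phosphatidylinositol 3- and 4-kinase family protein. It read 4.78 and 4.65 in rRBr against 7.17 and 6.68 in Col-0. The log2 difference was −2.21 with a standard error of 0.24, a 4.63-fold fall (adjusted p = 0.0292 from limma). The same gene stood at −1.75 at 6 das and −2.19 at 10 das, so that the difference at 4 das was close to that at 10 das. The change of its effect between 4 and 10 das was 0.02 with a standard error of 0.31. At5g24240 is on the study's list of responding genes, which was chosen on these samples over all days. The call rested on all 4 arrays, since without any 1 of them the difference lay between −2.46 and −1.97 with an adjusted p of 0.141 to 0.553, and it was 0.0896 without the 6 das arrays and 0.152 with the 4 das arrays alone.

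At2g34930 fell at 4 das and behaved differently afterwards. It read 6.23 and 6.25 in rRBr against 7.12 and 7.19 in Col-0, a log2 difference of −0.92 with a standard error of 0.10 (adjusted p = 0.0292 from limma). At 6 das both rRBr arrays, at 6.09 and 6.21, were below the 6.31 of the single Col-0 array. At 10 das the order was the opposite, with 6.73, 6.50 and 6.63 in rRBr against 5.80, 5.87 and 5.68 in Col-0. The Col-0 arrays were thus highest at 4 das and lowest at 10 das, while those of rRBr lay between 6.09 and 6.73 on all days. The effect at 10 das minus that at 4 das was 1.75 with a standard error of 0.13 (adjusted p = 0.00452 from limma), and this was the only 1 of 22746 probe sets, or 0.0044%, to pass that contrast. Neither call held without any 1 of the 4 das arrays, with an adjusted p of 0.141 to 0.553 for the fall and 0.0534 to 0.0731 for the change of the effect. The fall also missed the limit with the replicate number as a block (0.11, and 0.073 within day), with the 4 das arrays alone (0.192), without the 6 das arrays (0.0896), with a trend and robust variance (0.0982) and with the filter on low values (0.0521). No function is assigned to this gene in the annotation used here.

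The other 3 called probe sets are not assigned to a gene here. The one that met the stricter limits read 6.28 and 6.12 in rRBr against 8.02 and 7.99 in Col-0, a fall of 1.80 (standard error 0.12, adjusted p = 0.00257 from limma). With the replicate number as a block its adjusted p was 0.0113, above the stricter limit. Another fell by 1.92, with 5.25 and 5.62 in rRBr against 7.48 and 7.22 in Col-0. The only call in the upward direction read 6.93 and 6.97 in rRBr against 6.22 and 6.06 in Col-0, a rise of 0.81, and it did not pass with that block (adjusted p = 0.119 from limma). All 3 kept these directions on the arrays of 6 and 10 das without overlap.

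Among named genes that did not pass, the largest difference above 0 belonged to At5g05180, a gene of unknown function. It read 7.19 and 7.09 in rRBr and 5.34 and 4.23 in Col-0, and the 2.36 log2 units between the means had an adjusted p of 0.222 in limma, with Col-0 replicates 1.11 apart. At5g60250, a RING-type zinc finger protein, was next, at 6.46 and 6.34 in rRBr and 4.36 and 4.38 in Col-0 (difference 2.03, standard error 0.31, adjusted p = 0.183 from limma). Replicates of both lines lay within 0.12 of each other for this gene at 4 das, whereas the later rRBr arrays ranged between 5.90 and 7.23. With array weights both genes passed, at adjusted p = 0.0205 for At5g05180 and 0.00827 for At5g60250, and At5g60250 also passed without the 3 arrays that stood apart (adjusted p = 0.0125 from limma). Both genes are on the study's list of responding genes, which was chosen on these samples over all days.

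A pair of metabolic genes also stood on the upper side. ICL, the isocitrate lyase of the glyoxylate cycle that turns seed oil into sugar, read 7.26 and 6.44 in rRBr and 5.63 and 5.97 in Col-0, a difference of 1.05. NDB4, an alternative NAD(P)H dehydrogenase of mitochondria, read 6.16 and 5.71 in rRBr and 4.67 and 5.15 in Col-0, a difference of 1.03. Neither passed the test (adjusted p = 1.0 and 0.954 from limma). ICL had a difference of 0.93 at 6 das and of 0.25 at 10 das, and its effect at 10 das minus that at 4 das was −0.80 (unadjusted p = 0.0833 from limma).

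On the lower side, QQS, a gene that modulates starch content, read 3.99 and 4.33 in rRBr and 4.99 and 5.11 in Col-0. Its difference of −0.89 was followed by −0.96 at 10 das, with an adjusted p of 0.564 at 4 das and 0.0198 at 10 das in limma. The change between these days was −0.07 (unadjusted p = 0.761 from limma). At5g47600, an HSP20-like chaperone, read 5.82 and 5.86 in rRBr and 7.59 and 7.11 in Col-0, with differences of −1.51 at 4 das and −1.99 at 10 das. QQS and At5g47600 are on the study's list of responding genes, which was chosen on these samples over all days.

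Some other genes low in rRBr at 4 das were not low at 10 das. At1g20070 read 7.09 and 6.87 in rRBr and 8.76 and 9.12 in Col-0, a difference of −1.96 that was 0.27 at 10 das. At2g39980 read 8.20 and 7.52 in rRBr and 8.80 and 9.55 in Col-0, a difference of −1.32 that was 0.58 at 10 das. At1g49450 read 4.40 and 4.32 in rRBr and 5.26 and 5.80 in Col-0, a difference of −1.17 that was 0.14 at 10 das. The change of the effect between the days had an adjusted p of 0.899 for each of these 3 genes in limma. The plot of leading genes gives both arrays of each line for the 15 largest differences in each direction that had an unadjusted p under 0.01 and no overlap, taken from 55 such genes above and 41 below 0. Of the 41, 38 (92.7%) were lower at 6 das and 34 (82.9%) at 10 das, against 54.7% and 55.8% of all probe sets. At 10 das 24 of them (58.5%) were lower without overlap, against 4.81% of all, and 7 (17.1%) were higher, against 43.1% of all. Of the 55, 49 (89.1%) were higher at 6 das and 45 (81.8%) at 10 das, against 44.1% and 43.1% of all. The p-value limit used the spread between replicates of all days, so genes with steady replicates at 6 and 10 das were favoured. These shares are therefore not independent of the later arrays. Of the 332 lower probe sets chosen further on by 4 das values alone, 49.7% were lower at 6 das and 48.2% at 10 das. Of the 174 higher ones chosen in that way, 90.8% were higher on each later day.

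**Figure D2:**
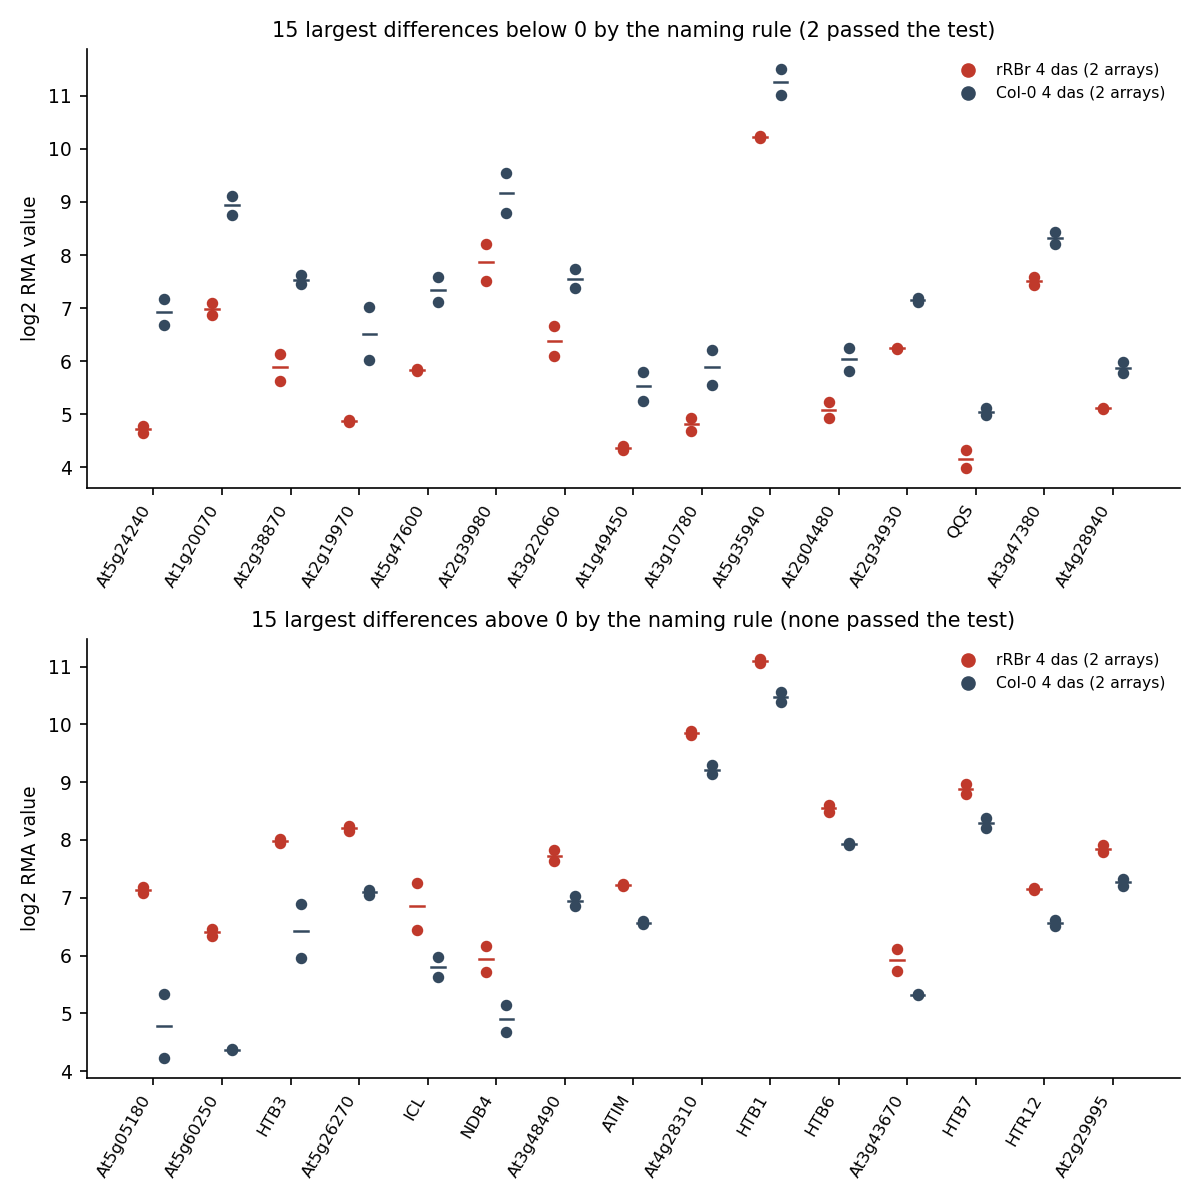
Log2 RMA values (y axis) on the 2 rRBr arrays and the 2 Col-0 arrays of 4 das for the 15 genes with the largest differences below 0 (upper panel) and above 0 (lower panel), with a line at each mean. Of the 30 genes, At5g24240 and At2g34930 passed an adjusted p under 0.05, and the gap between replicates was wide in some genes, such as 4.23 to 5.34 in Col-0 for At5g05180.

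All 10 measured H2B histone genes were higher in rRBr at this age, although no histone gene passed the test. Histones H2A, H2B, H3 and H4 form the nucleosome and are made in bulk during S phase. The 10, of 11 in the list, had no overlap between the lines, as was the case on the upper side for 19.8% of all probe sets, and 5 of the 10 lay at least 1.4-fold apart, as did 0.765% of all. The median difference of the 10 was 0.50, against 0.015 for all probe sets, and it was 0.67 at 6 das and 0.77 at 10 das. Most of the 10 are on the study's list of responding genes, which was chosen on these samples. The H2B list was also written with earlier results of these arrays known, so the shared direction is not independent evidence.

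HTB3 (At2g28720) led the H2B genes, at 7.94 and 8.01 in rRBr and 6.90 and 5.96 in Col-0, a difference of 1.55 (adjusted p = 0.222 from limma). HTB1, at a far higher signal, read 11.13 and 11.06 in rRBr and 10.56 and 10.38 in Col-0, a difference of 0.63. HTB6 (At3g53650) read 8.49 and 8.60 in rRBr and 7.94 and 7.92 in Col-0, a difference of 0.62 with a standard error of 0.10. That difference was larger than the 0.11 between its rRBr replicates and the 0.02 between its Col-0 replicates. HTB6 and HTB3 passed with array weights (adjusted p = 0.0399 and 0.0491 from limma), and HTB3 also without Col-0 replicate 1, where its difference was 2.02 (adjusted p = 0.00911). HTB7 (At3g09480) read 8.80 and 8.97 in rRBr and 8.38 and 8.21 in Col-0, and HTB10 (At5g02570) 6.51 and 6.70 in rRBr and 6.00 and 6.09 in Col-0. The remaining 5, HTB2, HTB4, HTB5, HTB8 and HTB11, differed by 0.26 to 0.43.

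The H3 genes were less even. HTR12, the centromeric H3 that marks the site of the kinetochore, read 7.13 and 7.17 in rRBr and 6.62 and 6.51 in Col-0, a difference of 0.59. HTR6 (At1g13370) read 4.66 and 4.58 in rRBr and 4.02 and 4.08 in Col-0, a difference of 0.57. By 10 das HTR6 read 7.20, 6.70 and 6.68 in rRBr and 4.03, 4.33 and 4.14 in Col-0, and its effect at 10 das minus that at 4 das was 2.12 (standard error 0.29, unadjusted p = 4.1e-05, adjusted p = 0.176 from limma). HTR14 (At1g75600) differed by 0.33, HTR10 (MGH3), the H3 of male gametes, by 0.10 and HTR15 (At5g12910) by 0.09, and all 3 had values of 4.62 or less on every array of 4 das.

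Nearly identical H3 genes share probe sets, and these 9 probe sets, which cannot be split among the genes, were all higher in rRBr without overlap (19.8% of all probe sets), with a median of 0.42. Among linker histones, which bind the DNA between nucleosomes, H1.1 (At1g06760) read 11.20 and 11.19 in rRBr and 10.74 and 10.75 in Col-0. The difference of 0.45 exceeded the 0.01 between replicates of each line, yet its adjusted p was 1.0 in limma. H1.2 (At2g30620) differed by 0.33, and HIS1-3, a linker histone induced by drought, read 3.93 and 4.01 in rRBr and 3.82 and 4.08 in Col-0. H1.1 and H3 genes of the shared probe sets are on the study's list, which was chosen on these samples.

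Replication genes stood in the same direction. All 7 measured genes of the 35 in the list were higher in rRBr without overlap (19.8% of all probe sets), 3 of them at least 1.4-fold (0.765% of all), and the median was 0.34. ATIM, the homolog of the fork protein TIMELESS, read 7.23 and 7.20 in rRBr and 6.54 and 6.59 in Col-0, a difference of 0.65 with a standard error of 0.14 (adjusted p = 0.623 from limma, and 0.0347 with array weights). PRL, the MCM7 subunit of the replicative helicase, read 9.60 and 9.50 in rRBr and 8.98 and 9.01 in Col-0, a difference of 0.56. ICU2, the catalytic subunit of DNA polymerase alpha, read 7.76 and 7.66 in rRBr and 7.22 and 7.21 in Col-0, a difference of 0.50. FEN1 (At5g26680), a flap endonuclease, and CDC6B (At1g07270), a licensing factor, both differed by 0.34, POLA3 by 0.27 and PSF2, a GINS subunit, by 0.21. At 10 das the median of the 7 was 0.42, and ATIM alone passed the test there (difference 0.65, adjusted p = 0.039 from limma). ATIM, PRL and ICU2 are on the study's list, which was chosen on these samples. The replication list was also written with earlier results of these arrays known, so the shared direction is not independent evidence.

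**Figure D3:**
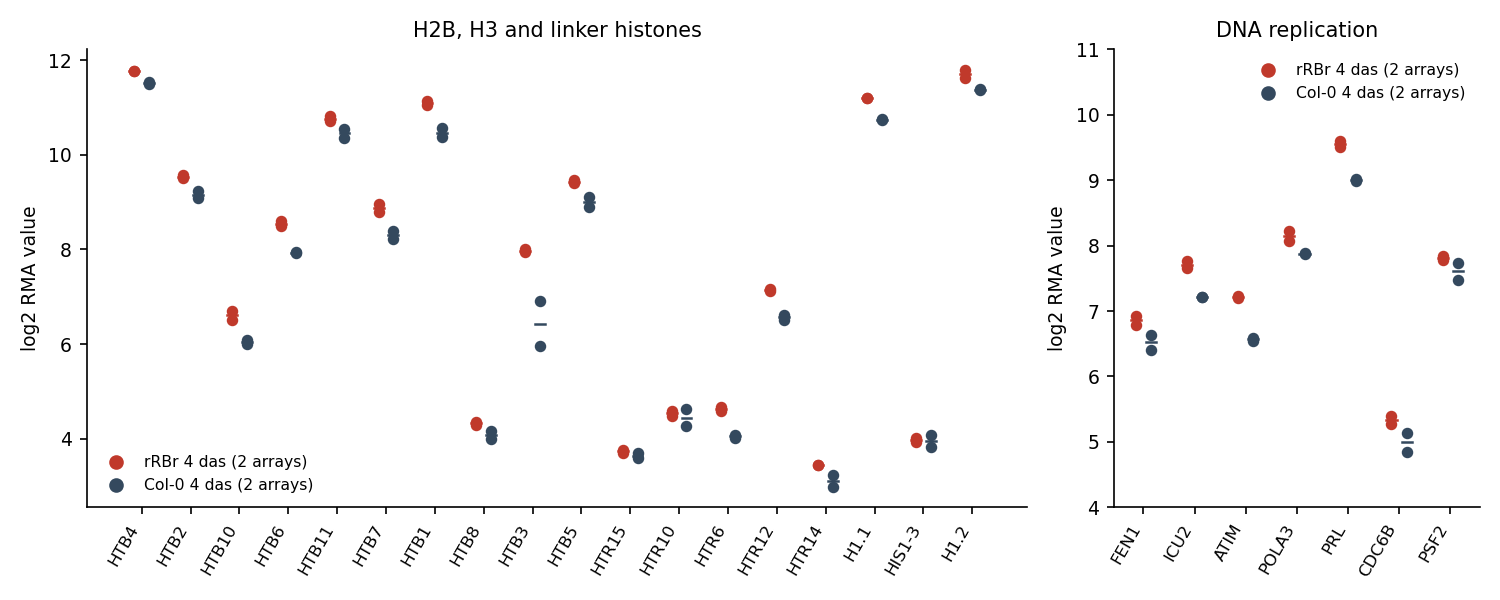
Log2 RMA values (y axis) on the 2 rRBr and 2 Col-0 arrays of 4 das for the 18 histone genes (left) and 7 replication genes (right) that could be told from their relatives, with a line at each mean. Only HTR10 and HIS1-3 had overlapping lines among the 25 genes, and none passed an adjusted p under 0.05.

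Genes that assemble or remodel chromatin were also on the upper side. CHR17, an ISWI-type remodeller, read 9.81 and 9.72 in rRBr and 9.06 and 9.21 in Col-0, a difference of 0.63. CHR31, a SNF2-type remodeller, had 2 probe sets, with differences of 0.46 and 0.26. The first read 4.13 and 4.22 in rRBr and 3.75 and 3.69 in Col-0, and passed with array weights (adjusted p = 0.0347 from limma). ASF1B and SGA2, chaperones of H3 and H4, both differed by 0.30, and the SGA2 arrays overlapped. CHR17 and CHR31 are on the study's list, chosen on these samples, so their direction is not independent evidence.

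Of the inhibitors of cyclin-dependent kinases, 5 of the 16 listed could be measured, and of the mitotic genes 3 of 28. SMR6 (At5g40460), a SIAMESE-related inhibitor, read 6.55 and 6.32 in rRBr and 5.89 and 5.94 in Col-0, and stood 0.52 higher (adjusted p = 0.75 in limma, standard error 0.12). SMR6 is also on the study's list, which was chosen on these samples. SMR8 (At1g10690) differed by 0.28 at 4 das and by 0.95 at 10 das, where it passed (adjusted p = 0.00389 from limma), and the change between these days was 0.68 with an unadjusted p of 0.00219 and an adjusted p of 0.899. SIM, the founding member, differed by 0.09, SMR2 (At1g08180) by 0.03 and SMR3 (At5g02420) by 0.01. The 3 Aurora kinases, which act on spindles and chromosomes, differed by 0.48 (AUR3), 0.24 (AUR1) and 0.15 (AUR2), with a median of 0.24. Their lines did not overlap, as was the case on the upper side for 19.8% of all probe sets. None of the 3 lay 1.4-fold apart or had an unadjusted p under 0.05 in limma.

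Of 29 listed genes of DNA damage and repair, 6 could be measured, 5 higher and 1 lower in rRBr, with 4 higher without overlap (19.8% of all probe sets). At5g60250, which is on this list through the study, was 1 of the 4. The other 5 lay between −0.06 for FANCD2 (At4g14970) and 0.28 for RTEL1 (At1g79950), a helicase. FANCM, another helicase, differed by 0.19, the ligase gene ATLIG4 by 0.15 and the nuclease gene FAN1 (At1g48360) by 0.08. The list's median was 0.17.

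Genes of the stem cell niche and of cell death had medians near 0. The 6 measured genes of the niche and meristem had a median of 0.03, and none was 1.4-fold apart without overlap. BBM, an AP2-type factor of the PLETHORA group, read 6.00 and 5.92 in rRBr and 5.93 and 6.24 in Col-0. AGL42, a MADS factor expressed in the quiescent centre, read 3.80 and 4.42 in rRBr and 4.09 and 4.00 in Col-0. The 8 measured genes of developmental cell death had a median of −0.03. Of these, PASPA3 (At4g04460), an aspartic protease, read 8.75 on both rRBr arrays and 8.17 and 8.38 in Col-0, whereas DMP4 (At4g18425) read 4.19 and 4.46 in rRBr and 4.87 and 5.23 in Col-0. SCPL48, a carboxypeptidase, differed by 0.26 at 4 das and by 1.22 at 10 das, where it passed (adjusted p = 0.0139 from limma), and the change of 0.96 between the days did not (adjusted p = 1.0).

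Hormone-related genes and WRKY factors had values on both sides of 0. The 7 measured Aux/IAA repressors of auxin response had a median of −0.03 and a range between −0.35 and 0.12, and the 6 WRKY factors a median of −0.04. ARR15, a type-A regulator that cytokinin induces and the only measured gene of 7 listed response regulators, read 4.56 and 4.59 in rRBr and 4.98 and 5.32 in Col-0, a difference of −0.58 without overlap (unadjusted p = 0.00313, adjusted p = 0.905 from limma) that was −0.13 at 10 das.

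The study's list of responding genes was chosen on these samples over all days, so its direction at 4 das is not independent evidence. All 33 probe sets of its upper part that stand for 1 gene were higher in rRBr without overlap at 4 das (19.8% of all probe sets), 22 of them at least 1.4-fold (0.765% of all), with a median of 0.53. That median was 0.63 at 6 das and 0.72 at 10 das. The 7 of its lower part had a median of −0.89 at 4 das and −0.96 at 10 das, and 1 of them, At5g24240, passed.

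The higher and lower sides of the 4 das comparison were followed on the later days, which share no array with it. Values of the lines did not overlap and lay at least 1.4-fold apart for 174 probe sets higher in rRBr (0.765%) and for 332 lower (1.46%). Without the limit on size, 19.8% of probe sets were higher without overlap. Differences of at least 2-fold without overlap numbered 14 on the upper side and 62 on the lower side at 4 das. The same numbers were 195 above and 41 below 0 for the 6 das arrays, and 110 above and 12 below 0 for the 10 das arrays. The groups held 2 against 2, 2 against 1 and 3 against 3 arrays on these days, and overlap is rarer with fewer arrays.

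Of the 174 probe sets higher in rRBr, 158, or 90.8%, were higher at 6 das and as many at 10 das, against 44.1% and 43.1% of all probe sets. On both days 149 (85.6%) were higher, against 25.5% of all. Their median difference at 4 das was 0.59, against 0.49 on the arrays of 6 das and 0.60 on those of 10 das. Of them, 104 (59.8%) were higher without overlap between lines at 10 das, against 5.28% of all. Of the 332 lower probe sets, 165 (49.7%) were lower at 6 das and 160 (48.2%) at 10 das, against 54.7% and 55.8% of all. Their median was −0.69 at 4 das and 0.01 at 10 das. The plot of later days shows 1 cloud above 0 and the other spread around it.

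**Figure D4:**
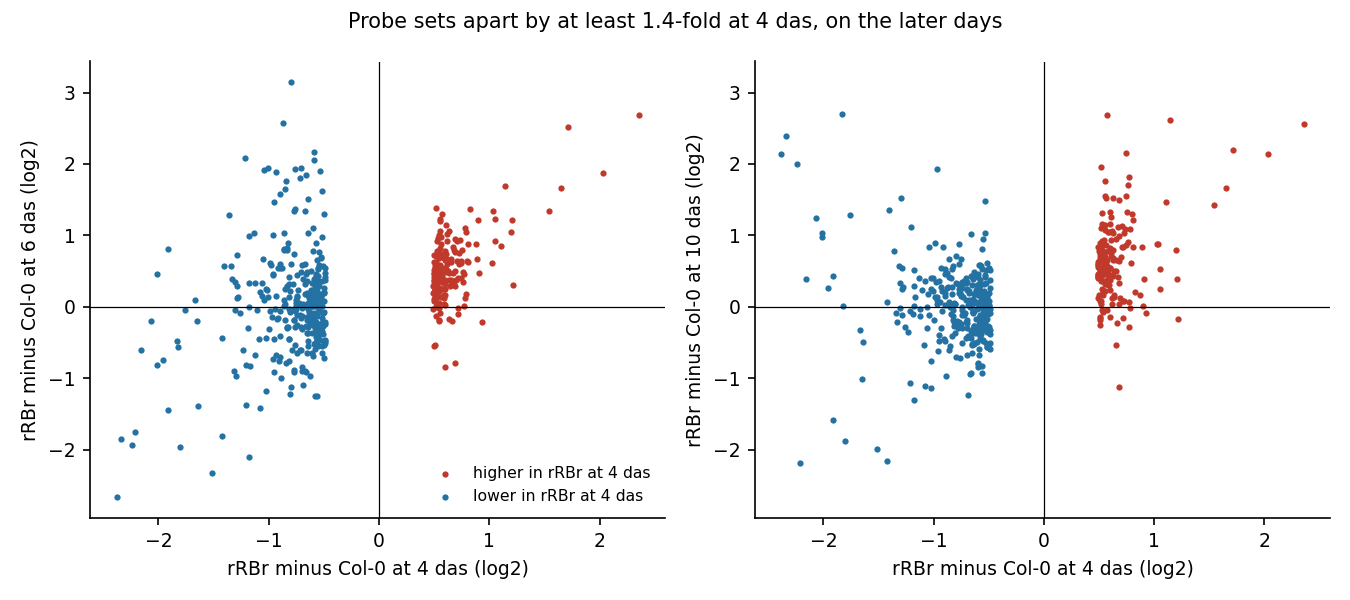
Difference between rRBr and Col-0 (log2) at 6 das (left, y axis) and 10 das (right, y axis) against that at 4 das (x axis) for the 174 probe sets higher and the 332 lower in rRBr at 4 das. Of the points on the right, 90.8% lie above 0 in each panel, and those on the left lie on both sides of 0.

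The lower side held transcripts that varied between replicates. Over the 8 arrays of 6 and 10 das in groups with replicates, the median SD was 0.27 for the 174 higher probe sets, 0.49 for the 332 lower ones and 0.15 for all. An unadjusted p under 0.05 in limma was reached by 118 of the 174 (67.8%) and by 119 of the 332 (35.8%). The share of all probe sets was 3.10%. Both sets were chosen by size and lack of overlap on the same values that enter this p. Shares above that of all probe sets are thus built in.

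On the later arrays with the most root hair transcript, most of the lower probe sets were higher on average than on the other replicates. On 3 later arrays, replicate 1 of rRBr at 6 das, of rRBr at 10 das and of Col-0 at 10 das, EXPA7 and EXPA18 averaged 8.89, 8.80 and 8.86, and on the other replicates of these groups 4.69 to 5.72. Replicate 1 minus the other replicates, averaged over these 3 groups, was above 0 for 280 of the 331 lower probe sets other than EXPA18 (84.6%), for 22 of the 174 higher ones (12.6%) and for 37.7% of all. The median of this measure was 0.57, −0.28 and −0.05 for these sets. In each of the 3 groups taken singly, replicate 1 was above the others for 183 of the 331 (55.3%), 7 of the 174 (4.02%) and 19.1% of all. Other ways in which these arrays may differ were not tested. Leaving out those 3 arrays left 2 arrays at 6 das, 1 of each line, and 4 at 10 das. The 332 were then lower in 73.8% of cases at 6 das and 57.2% at 10 das, against 50.2% and 51.9% of all probe sets. The share at 6 das thus rests on 1 pair of arrays. The 174 were then higher in 92.5% and 93.7%, against 45.9% and 46.6% of all. At 4 das EXPA18 was itself among the 332, at 5.95 on both rRBr arrays against 7.16 and 6.03 in Col-0, and EXPA7 differed by −0.77 with overlapping arrays. The part of root hair content in the 4 das differences was not tested.

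**Figure D5:**
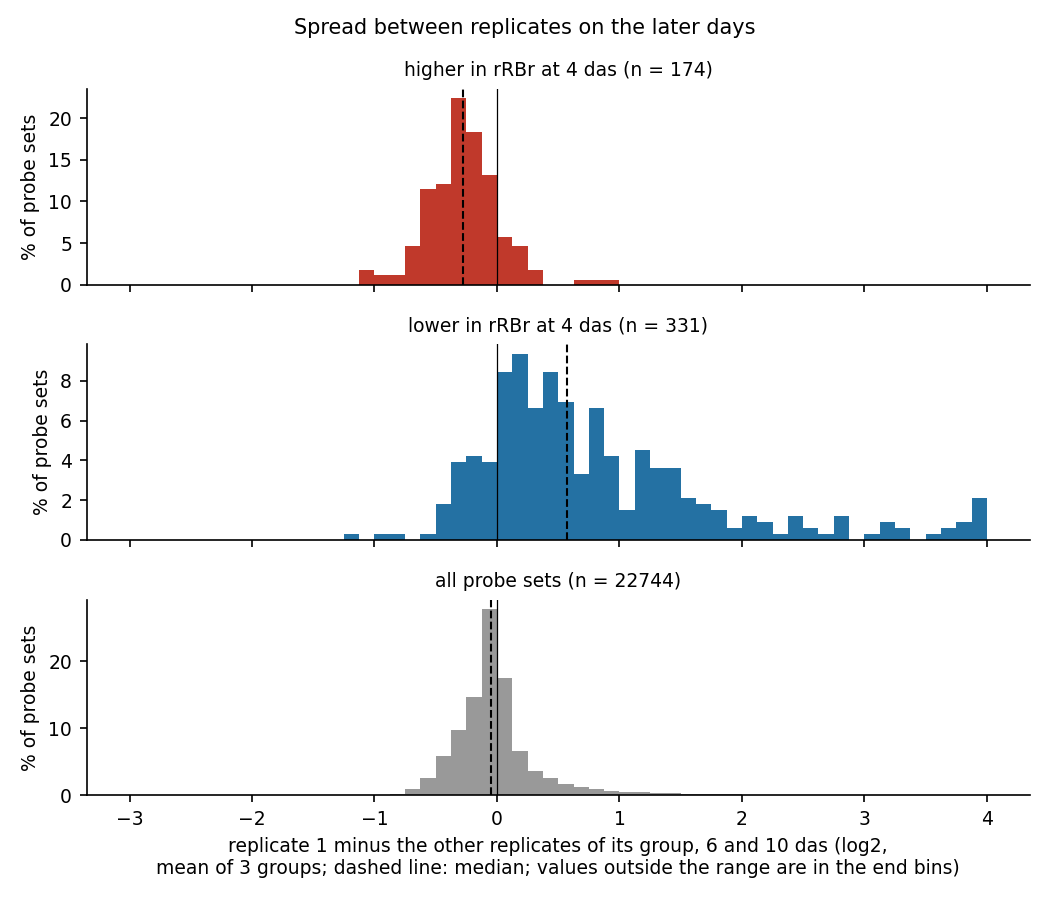
Share of probe sets (%, y axis) by the log2 value on replicate 1 minus the mean of the other replicates of its group, averaged over rRBr 6 das, rRBr 10 das and Col-0 10 das (x axis), with the median dashed. The 331 probe sets lower in rRBr at 4 das centred on 0.57, the 174 higher ones on −0.28 and all probe sets on −0.05.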

How the data were processed

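RNA of dissected root tips was hybridized to Affymetrix ATH1 arrays, 1 biological replicate per array. The authors normalized the arrays with RMA (affy package, versions not given in the sources used here), which puts the deposited values on the log2 scale, with a column for each array. They were used unchanged. The medians of the 13 arrays lay between 5.96 and 6.06. Of 22810 probe sets, 64 controls were left out. A table of the platform's genes gave 1 gene for 13513 of the 22746 tested, of which 13436 matched the RefSeq annotation of TAIR10.1. Another 503 were tied to several genes, and the 8730 without an entry stay unnamed.

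The 6 groups of line and day were fitted in limma 3.58.1 (lmFit and eBayes, R 4.3.3), with 7 residual degrees of freedom and Benjamini-Hochberg adjustment over all probe sets. The methods of the study fix the limits of 0.01 and 1.4-fold, and 0.05 alone was the wider limit. The single Col-0 array of 6 das was assumed to vary like the others. The labels call the replicates biological, and p-values measure the spread between these arrays. Arrays give no counts, so that their number limits the precision. No values of the study's own comparisons were used.

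The members, gene lists and tests were chosen with earlier results of these data known. Named genes are the called ones, the 15 largest differences in each direction among genes with an unadjusted p under 0.01 and no overlap, the called and 3 most different members of each list, and genes that the study tests. Members outside this rule were named after their values were seen. List members without a probe set of their own were not analysed here, which left no member of the lists of H2A histones, D-type cyclins and E2F factors, heat shock, cellulose synthase, xylem, phloem and endodermis genes. The fit was tested on simulated data. Alternatives were the 4 das arrays alone, leaving out arrays, the replicate block, array weights, a trend and robust variance, other normalizations and filters. The measure of replicate 1 against other replicates was chosen after seeing the data, as was leaving out arrays for the counts of values that do not overlap.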

Additional observations from a re-analysis of the deposited data

Results flagged for a closer look

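At2g34930 was the single named gene whose effect of rRBr differed between days by a test of the difference itself. The effect at 10 das minus that at 4 das was 1.75 on the log2 scale (adjusted p = 0.00452 from limma), with both rRBr arrays below both Col-0 arrays at 4 das and all 3 rRBr arrays above all 3 Col-0 arrays at 10 das. It passed under each alternative that kept all 4 arrays of 4 das (adjusted p between 0.000464 and 0.0347) and under none that left out 1 of them (0.0534 to 0.0731). Groups of 2 arrays are too small to look for single arrays that lie apart.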

How the results depend on the processing

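At 4 das, 1 probe set passed the stricter limits and 5 the wider one. The stricter count from limma was 0 with the 4 das arrays alone (1478 at an unadjusted p under 0.05), 2 without the 3 arrays that stand apart, 0 with the replicate block (1061 unadjusted), 7 with array weights, 0 among probe sets of 1 gene, 5 with an adjusted p under 0.05 and no fold limit together, and 0 to 1 when single arrays were left out. The wider count was 0 with the 4 das arrays alone, 1 without the 6 das arrays, 17 without the 3 arrays, 3 with a trend and robust variance, 25 with array weights, 3 with the filter on low values, 2 among probe sets of 1 gene, and 0 to 2 without single arrays. A shared replicate block gave 4 and a block within day 6. Deviations of rRBr and Col-0 arrays of the same number correlated at 0.18, 1 value that cannot show a pairing with 2 arrays per line. The labels give both lines a common start of germination, repeated 3 times, but do not say that a number marks a repeat.

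For the effect at 10 das minus that at 4 das, 1 probe set passed, against 4 without the 6 das arrays, 4 without the 3 arrays, 15 with the replicate block within day, 25 with array weights, 3 with quantile normalization again and 0 without any single 4 das array (525 to 697 unadjusted). For 6 das minus 4 das, none passed (444 at an unadjusted p under 0.05), and 1270 did with the replicate block within day. That block leaves few residual degrees of freedom. The cause of these changes was not tested. Without single arrays the probe sets without overlap and at least 1.4-fold apart numbered 189 to 333 on the upper side (333 without Col-0 replicate 1, 302 without rRBr replicate 1) and 320 to 785 on the lower side (785 without rRBr replicate 1, 708 without Col-0 replicate 2), where 1 array replaces 2 and overlap is rarer by construction.

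List medians moved by more than the spread between replicates with the filter on low values, to 0.56 for H2B, 0.58 for H3, 0.18 for CDK inhibitors, 0.22 for leaf genes, 0.10 for cell death genes, −0.065 for Aux/IAA genes, 0.065 for WRKY factors and −0.80 for the lower part of the study's list, and to 0.36 for replication genes with quantile normalization again. Without single arrays they ranged from 0.46 to 0.52 for H2B, 0.21 to 0.45 for H3, 0.25 to 0.42 for linker histones, 0.35 to 0.49 for replication, 0.14 to 0.25 for damage and repair, 0.025 to 0.19 for CDK inhibitors, 0.16 to 0.33 for mitotic genes, 0.28 to 0.46 for chromatin genes, −0.015 to 0.06 for the niche, −0.21 to 0.01 for the root cap, −1.32 to −0.09 for root hairs, 0.04 to 0.19 for leaf genes, −0.06 to −0.01 for cell death, −0.07 to 0.01 for Aux/IAA genes, −0.75 to −0.41 for ARR15, −0.07 to 0.02 for WRKY factors, 0.49 to 0.59 for the upper and −0.96 to −0.72 for the lower part of the study's list.

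Of 87 named probe sets, 80 kept their direction under all alternatives. The direction turned for HIS1-3 (−0.0015 with quantile normalization again, −0.11 without Col-0 replicate 1, −0.02 without rRBr replicate 2), UPB1 (0.02), IAA33 (−0.17) and IAA18 (0.035) without rRBr replicate 2, IAA18 (0.02) and LHCB4.2 (0.11) without Col-0 replicate 1, BBM (0.03) without Col-0 replicate 2 and RCPG (At1g65570, 0.01) without rRBr replicate 1 (ranges without single arrays −0.11 to 0.15 for HIS1-3, −0.76 to 0.02 for UPB1, −0.28 to 0.03 for BBM and −0.17 to 0.40 for IAA33), none of them called. The replicate block left the fall of At2g34930 at an adjusted p of 0.11, and 0.073 within day.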
